A study of Mus musculus with 16 samples.

Results

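The endocannabinoid and monoacylglycerol genes described here are Dagla, Daglb and Napepld, which make endocannabinoids, Mgll, Abhd6, Abhd12 and Faah, which break them down, and Cnr1, the CB1 receptor. These 8 genes were picked by name for their roles, with their counts in these libraries already known. Their p-values and ranks below therefore describe these counts and are not independent tests. All 8 were found among the 41325 genes of the tables. The libraries were made from wild-type immortalized preadipocytes of the mouse strain C57Bl6/J, fat cell precursors that form adipocytes in culture. Each of the 4 groups held 4 libraries: cells pre-treated with interleukin-13 (IL-13) for 16 h at day 0, untreated cells at day 0, pre-treated cells at day 6 of differentiation, and untreated cells at day 6. IL-13 is a cytokine of type 2 immunity. No group carried a genetic change, and the labels do not say whether the libraries of a group were separate cultures or how many cell lines were used. Every p-value is thus measured against the spread of these libraries, and that spread may be technical.

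The endocannabinoid 2-arachidonoylglycerol is a monoacylglycerol. Diacylglycerol lipases release it from diacylglycerol, and the serine hydrolases Mgll, Abhd6 and Abhd12 cleave it to arachidonic acid and glycerol. Anandamide, the other main endocannabinoid, belongs to the N-acylethanolamines, which Napepld releases from membrane phospholipids and Faah cleaves. In fat cells Mgll is also the enzyme that completes the breakdown of stored triglyceride, after Pnpla2 and Lipe have removed the first fatty acids. CB1 is known mainly from neurons and is also present in fat tissue.

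Library totals lay between 15253031 and 18112087 counts. Levels are given as CPM, the share of a library's counts, on library sizes scaled by the trimmed mean of M values, or as the authors' deposited TPM where genes are compared with each other, since TPM also corrects for transcript length. The 7 adipocyte markers summed to between 24650 and 26548 CPM in pre-treated cells at day 6, and to between 23623 and 25490 CPM in untreated cells at day 6. At day 0 they summed to between 469 and 491 CPM in pre-treated cells and between 505 and 546 CPM in untreated cells. The 6 neuron markers summed to at most 0.990 CPM in every library, and Map2 and Gad1 were at 0 in all of them. Of the 5 macrophage markers, Adgre1 was at 0 in all libraries, and the sums lay between 1.42 and 8.61 CPM. In both day 0 groups 3 of the 5 averaged at least 1 CPM, and in both day 6 groups 1 did. Of 3 tested at day 0, edgeR called Csf1r higher with IL-13 (log2 1.46, SE 0.22) and Lyz2 lower (log2 -0.69, SE 0.23). Over all genes 23.7% were called higher and 24.2% lower. The 4 endothelial markers summed to at most 3.32 CPM and the 4 glial markers to at most 2.45 CPM. The 6 preadipocyte markers summed at day 0 to between 1283 and 1339 CPM in pre-treated and between 1187 and 1275 CPM in untreated cells, and at day 6 to between 376 and 453 CPM in pre-treated and between 391 and 489 CPM in untreated cells. These are RNA measurements on bulk samples, in which fewer cells with a transcript and less of it per cell cannot be told apart. The nuclear RNA index is the mean log2 CPM of 26 genes listed for nuclear-retained or retained-intron transcripts. Counts per gene do not separate such transcripts from other transcripts of the same gene, so nuclear retention itself was not measured. The index was lower in pre-treated than in untreated libraries on both days. At day 0 it was 4.11 ± 0.10 in pre-treated cells and 4.96 ± 0.38 in untreated cells (SD, n = 4 each), and at day 6 it was 4.34 ± 0.26 in pre-treated cells and 5.31 ± 0.29 in untreated cells. Of its 23 tested genes 22 were called lower with IL-13 at day 0, against 24.2% of all genes, and 19 at day 6, against 4.34%. The exact two-sided permutation test gave p = 0.0286 on each day, the smallest that 70 arrangements allow. The 26 RNAs were listed with this difference already known from these libraries. The p-value and the counts therefore describe it and do not test it. Its part in the IL-13 differences below was not tested beyond the fits named beside them.

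The 8 genes are autosomal, and their coordinates in the tables are those of GRCm38 (mm10). Daglb (ENSMUSG00000039206) lies at chr5:143464584-143505942 on the plus strand, and 24.1% of its exon bases overlap exons of Rac1 on the other strand. Mgll (ENSMUSG00000033174) lies at chr6:88724412-88828360 on the plus strand, and 3.29% of its exon bases overlap Gm26588 on the other strand. Dagla (ENSMUSG00000035735) lies at chr19:10245265-10304877 on the minus strand and Napepld (ENSMUSG00000044968) at chr5:21662901-21701396 on the minus strand. Abhd6 (ENSMUSG00000025277) lies at chr14:8002902-8056763 on the plus strand and Abhd12 (ENSMUSG00000032046) at chr2:150832493-150904741 on the minus strand. Faah (ENSMUSG00000034171) lies at chr4:115967145-116017926 on the minus strand, and Cnr1 (ENSMUSG00000044288) lies on the same chromosome at chr4:33924593-33948831 on the plus strand. Among the 6 genes past the expression filter at day 0, Daglb and Mgll had the largest IL-13 differences, and so the 250 bases before their RefSeq transcription starts are shown here from GRCm38.p6, 5′ to 3′ on the plus strand. Capitals mark each CG dinucleotide. The first window is chr5:143464243-143464492 and the second, before the first of the 2 RefSeq starts of Mgll, is chr6:88724162-88724411.
Daglb: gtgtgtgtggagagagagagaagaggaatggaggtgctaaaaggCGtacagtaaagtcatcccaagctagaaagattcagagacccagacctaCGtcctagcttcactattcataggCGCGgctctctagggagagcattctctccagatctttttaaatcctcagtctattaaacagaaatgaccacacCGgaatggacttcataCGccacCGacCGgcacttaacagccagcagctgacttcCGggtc
Mgll: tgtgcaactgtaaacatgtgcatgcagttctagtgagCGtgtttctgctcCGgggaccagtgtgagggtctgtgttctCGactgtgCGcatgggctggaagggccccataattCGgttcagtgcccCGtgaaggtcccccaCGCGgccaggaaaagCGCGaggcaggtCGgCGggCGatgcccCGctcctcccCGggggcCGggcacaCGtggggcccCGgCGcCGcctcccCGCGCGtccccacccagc
The Mgll window held 23 CG dinucleotides and 68.0% G and C, and the Daglb window held 9 CG dinucleotides and 49.2% G and C. The median over 32851 RefSeq promoters was 6.0 CG dinucleotides and 52.4% G and C. The second Mgll start lies 292 bases downstream, and its window held 40 CG dinucleotides. RefSeq promoters were found for 6 of the 8 genes, with 10 windows in all. TTCNNNNGAA and TTCNNNGAA, the forms of letters bound by STAT6 and other STAT proteins, and AGGTCANAGGTCA, a direct repeat bound by PPAR and RXR, were searched on both strands. None of the 10 windows held any of these letters. Of all 32851 windows of the same length, 5.85% held TTCNNNNGAA, 7.02% held TTCNNNGAA and 0.0335% held AGGTCANAGGTCA.

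Daglb, the diacylglycerol lipase that is the less used of the pair in brain and the main one in macrophages, was several times higher after IL-13 at day 0. The pre-treated libraries held 156, 147, 149 and 163 CPM, and the untreated libraries held 24.5, 23.3, 24.2 and 24.7 CPM. All pre-treated libraries lay far above all untreated ones, and neither group spread by much. The difference was 6.28-fold (log2 2.65, SE 0.06), and 53 of the 12274 genes tested had a larger one in this direction. In edgeR's quasi-likelihood fit over all genes the adjusted p was 1.86e-14. Because Daglb was picked with its counts known, this p-value and the rank are descriptive. Over the 16 alternatives tried the log2 difference stayed between 2.53 and 2.72. Rac1, whose exons overlap those of Daglb, averaged 564 ± 19.3 CPM in pre-treated cells and 499 ± 34.4 CPM in untreated cells (SD, n = 4 each), a log2 difference of 0.16. Whether counting used the strand is not given in the sources used here, so reads in the overlap may belong to either gene.

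By day 6 the Daglb difference was no longer seen. Daglb held 21.0, 18.6, 19.5 and 21.0 CPM in pre-treated libraries at day 6, against 22.2, 17.9, 19.9 and 21.2 CPM in untreated libraries at day 6. The groups overlapped fully, with a log2 difference of -0.01 (SE 0.09, adjusted p 0.972 by edgeR), whose sign turned under 5 of 16 alternatives. The IL-13 difference at day 6 minus that at day 0 was -2.68 on the log2 scale (SE 0.09, adjusted p 6.55e-14 by edgeR over all genes). Within pre-treated cells Daglb was 7.66-fold lower at day 6 than at day 0 (log2 -2.94, SE 0.07). Within untreated cells it was also lower at day 6, by a log2 difference of -0.26 (SE 0.07, adjusted p 0.00189 by edgeR).

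Dagla, the diacylglycerol lipase that makes most 2-arachidonoylglycerol in the brain, stood near the same level with and without IL-13. At day 0 it held 15.8, 14.5, 15.6 and 15.1 CPM in pre-treated libraries and 14.0, 10.97, 14.0 and 15.8 CPM in untreated libraries. The libraries overlapped, and the log2 difference was 0.13 (SE 0.10, adjusted p 0.290 by edgeR). At day 6 it held 16.3, 18.7, 20.9 and 20.3 CPM in pre-treated libraries and 21.8, 20.6, 22.0 and 18.7 CPM in untreated libraries, which overlapped again (log2 difference -0.11, SE 0.10, adjusted p 0.481 by edgeR). Dagla was higher at day 6 than at day 0 in pre-treated cells (log2 0.32, SE 0.10) and in untreated cells (log2 0.59, SE 0.10).

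The balance of the pair is given as a description, with no test. Daglb made up 85.8% ± 0.610 of the summed Dagla and Daglb TPM in pre-treated cells at day 0 and 51.7% ± 3.23 in untreated cells at day 0 (SD, n = 4 each). At day 6 the share was 38.8% ± 3.39 in pre-treated cells and 37.0% ± 2.81 in untreated cells. Their summed level was 59.7 ± 5.02 TPM in pre-treated cells at day 0 and 18.2 ± 2.22 TPM in untreated cells at day 0, and at day 6 it was 15.8 ± 0.541 TPM in pre-treated cells and 18.3 ± 1.28 TPM in untreated cells. The day 0 pre-treated cells stood apart in both measures, and the sums of the other 3 groups lay closer together. At day 6 the pre-treated libraries held sums of 15.2 to 16.5 TPM, all below the untreated ones at 17.1 to 20.0 TPM.

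**Figure D1:**
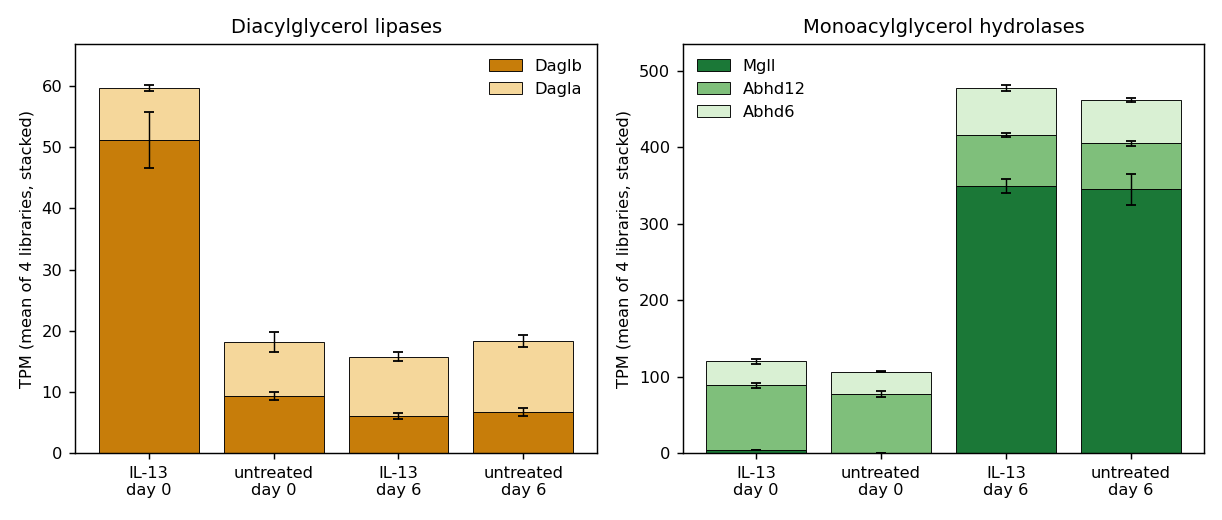
Stacked mean TPM, the authors' deposited length-scaled unit, of the diacylglycerol lipases (left) and the monoacylglycerol hydrolases (right) in the 4 groups, with the SD over 4 libraries at the top of each gene's segment. Daglb reached 51.2 TPM in pre-treated cells at day 0, and Mgll reached 349 TPM in pre-treated and 345 TPM in untreated cells at day 6.

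Mgll, the monoacylglycerol lipase, was barely expressed in untreated cells at day 0 and was higher after IL-13. The pre-treated libraries held 6.35, 6.65, 7.24 and 6.52 CPM, and the untreated libraries held 0.768, 0.986, 0.518 and 0.643 CPM. These rest on 435 counts in pre-treated and 52 counts in untreated libraries, summed over 4 each. Every pre-treated library lay above every untreated one, by 9.05-fold in the fit (log2 3.18, SE 0.17, adjusted p 1.38e-09 by edgeR), and 37 of 12274 genes had a larger difference in this direction. The log2 difference was between 3.06 and 3.34 over 16 alternatives. Untreated replicate 3, with 9 counts, fell below the filter, so Mgll passed it at day 0 only through its pre-treated libraries. The p-value and rank are therefore descriptive, and the call was kept without a filter.

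Over differentiation Mgll became the most abundant transcript among these 8 genes. At day 6 it held 581, 582, 668 and 604 CPM in pre-treated libraries and 572, 509.9, 572 and 541 CPM in untreated libraries. All 4 pre-treated libraries lay above the untreated ones in CPM, but the difference (log2 0.16, SE 0.07) missed the threshold over all genes (adjusted p 0.141 by edgeR). The sign of the difference turned with the nuclear RNA index in the fit, and it passed the threshold only with a replicate block (adjusted p 0.0393 by edgeR). In TPM the groups overlapped at day 6. The IL-13 difference at day 6 minus that at day 0 was -3.04 on the log2 scale (SE 0.16, adjusted p 2.80e-11 by edgeR). Mgll was 90.9-fold higher at day 6 than at day 0 in pre-treated cells (log2 6.51, SE 0.08) and 749.5-fold higher in untreated cells (log2 9.55, SE 0.11), where 81 of 13157 genes rose by more. Its untreated day 0 libraries would not have passed the filter by themselves, so the untreated fold, its rank and the between-day p-value are descriptive. Gm26588 had no counts at day 0, and at day 6 it averaged 4.48 CPM in pre-treated and 4.51 CPM in untreated cells.

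The level that Mgll had in pre-treated cells at day 0 was therefore low beside its level in day 6 cells. Mgll stood at 4.19 ± 0.131 TPM in pre-treated cells at day 0, 0.531 ± 0.146 TPM in untreated cells at day 0, 349 ± 8.63 TPM in pre-treated cells at day 6 and 345 ± 20.3 TPM in untreated cells at day 6 (SD, n = 4 each). Its share of the summed Mgll, Abhd6 and Abhd12 TPM was 3.49% ± 0.128 in pre-treated and 0.500% ± 0.149 in untreated cells at day 0. At day 6 the share was 73.2% ± 0.310 in pre-treated and 74.7% ± 1.21 in untreated cells. The sum of these 3 hydrolases at day 0 was 120.3 ± 4.66 TPM in pre-treated and 107 ± 3.66 TPM in untreated cells, most of it Abhd12.

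**Figure D2:**
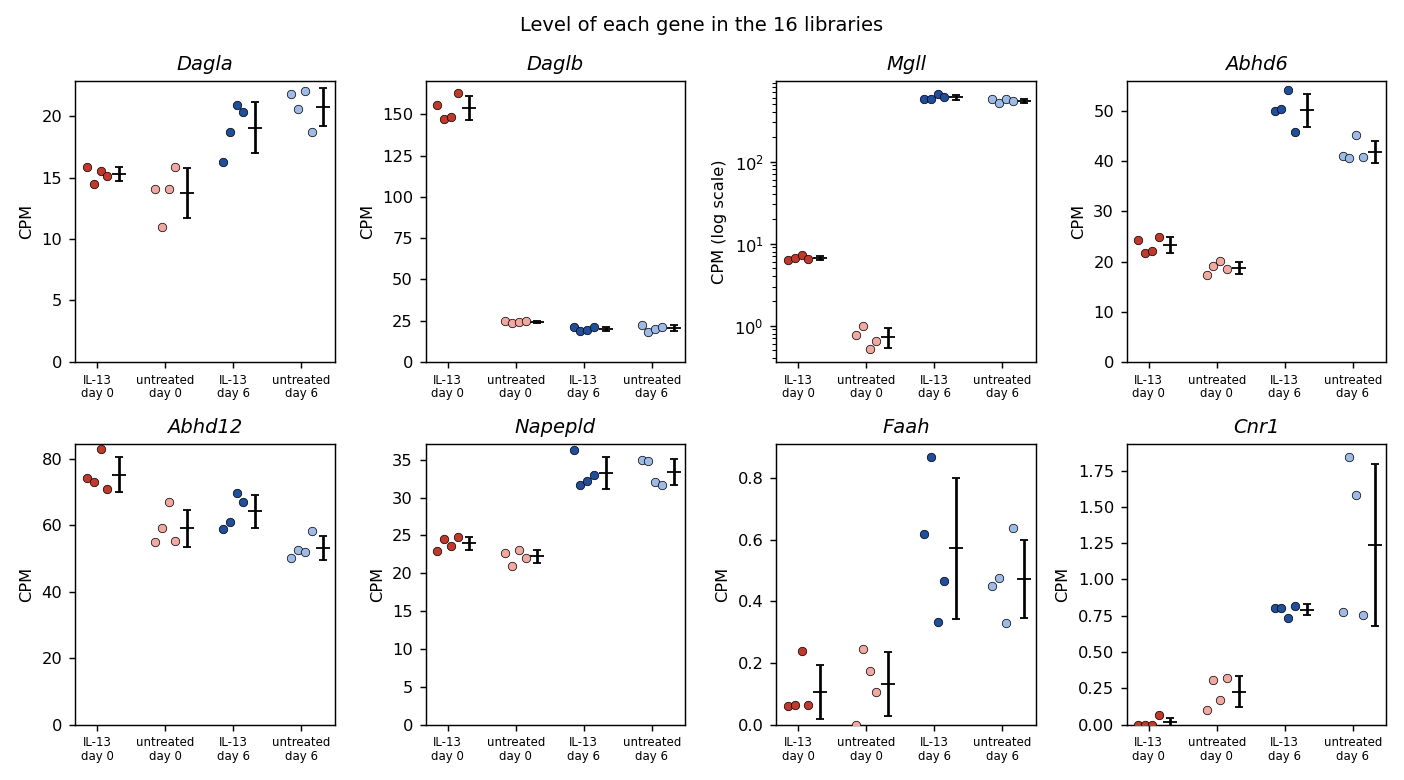
CPM of each of the 8 genes in the 16 libraries, with a separate vertical scale for each gene and a log scale for Mgll only. Points are libraries, and the bar beside them is mean ± SD (n = 4). Daglb lies at or above 147 CPM in pre-treated cells at day 0 and at or below 24.7 CPM in the other groups. Mgll lies at or below 7.24 CPM at day 0 and at or above 509.9 CPM at day 6.

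Abhd6 and Abhd12 are membrane-bound hydrolases that also cleave 2-arachidonoylglycerol. Both were slightly higher with IL-13 on both days. Abhd6 at day 0 held 24.3, 21.7, 22.1 and 24.9 CPM in pre-treated libraries and 17.3, 19.0, 20.0 and 18.5 CPM in untreated libraries, without overlap. The difference was 1.23-fold (log2 0.30, SE 0.07, adjusted p 0.00437 by edgeR). The call was lost with scaling by total counts (adjusted p 0.0674), with the nuclear RNA index in the fit (0.632) and without the untreated libraries richest in nuclear RNA, replicates 1 and 4 (0.0581). Abhd12 at day 0 held 74.2, 73.1, 82.9 and 70.8 CPM in pre-treated libraries and 55.1, 59.1, 66.9 and 55.4 CPM in untreated libraries, again without overlap. In TPM the day 0 libraries of both genes overlapped, where the lowest pre-treated library had 28.4 TPM and the highest untreated one 30.4 TPM for Abhd6. For Abhd12 the lowest pre-treated library had 80.7 TPM and the highest untreated one 82.02 TPM. The difference was 1.26-fold (log2 0.33, SE 0.07, adjusted p 0.00085 by edgeR). With the nuclear RNA index in the fit the log2 difference was 0.05 and the adjusted p 0.863.

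At day 6 Abhd6 held 50.0, 50.5, 54.2 and 45.9 CPM in pre-treated libraries and 41.0, 40.6, 45.2 and 40.8 CPM in untreated libraries. Abhd12 held 59.0, 61.0, 69.8 and 67.0 CPM in pre-treated libraries and 50.2, 52.6, 51.9 and 58.4 CPM in untreated libraries. Neither gene's groups overlapped in CPM. The log2 differences were 0.27 for Abhd6 (SE 0.07, adjusted p 0.0423 by edgeR) and 0.28 for Abhd12 (SE 0.07, adjusted p 0.0454 by edgeR). These calls were at the edge: that of Abhd6 was lost under 9 of 16 alternatives (adjusted p 0.0506 to 0.927) and that of Abhd12 under 10 of 16 (0.0504 to 0.964). Among single libraries left out, pre-treated replicates 2, 3 or 4 ended both calls, as did untreated replicates 1 or 2, while untreated replicate 3 ended that of Abhd12 and untreated replicate 4 that of Abhd6. In TPM, which does not use the trimmed-mean scaling, Abhd6 was 61.9 ± 4.04 in pre-treated and 56.5 ± 2.55 in untreated cells at day 6 and Abhd12 was 66.2 ± 2.35 in pre-treated and 60.2 ± 3.24 in untreated cells, and the libraries of both genes overlapped. For neither gene did the IL-13 difference differ between the days past the threshold (log2 -0.05, SE 0.10, adjusted p 0.819 for Abhd6 and log2 -0.08, SE 0.11, adjusted p 0.736 for Abhd12, by edgeR), and both signs turned under some alternatives.

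Abhd6 was 2.16-fold higher at day 6 than at day 0 in pre-treated cells and 2.24-fold higher in untreated cells. Abhd12 was lower at day 6 in pre-treated cells (log2 -0.23, SE 0.07, adjusted p 0.00763 by edgeR), a call that was lost without pre-treated replicate 3 of day 0 (adjusted p 0.0650) or replicate 1 of day 6 (0.0573). In untreated cells its log2 difference was -0.15 (SE 0.07, adjusted p 0.0731), which passed the threshold under 14 of 23 alternatives. In every day comparison the day is also the deposited table, so that a difference between tables cannot be told apart from the day.

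Napepld, the phospholipase that releases anandamide and related amides, showed no IL-13 difference past the threshold on either day. At day 0 it held 22.9, 24.5, 23.6 and 24.8 CPM in pre-treated libraries and 22.7, 21.0, 23.1 and 22.1 CPM in untreated libraries (log2 0.09, SE 0.07, adjusted p 0.265 by edgeR; -0.03 with scaling by total counts). At day 6 it held 36.4, 31.7, 32.2 and 32.9 CPM in pre-treated libraries and 35.0, 34.8, 32.1 and 31.7 CPM in untreated libraries (log2 0.01, SE 0.07, adjusted p 0.947 by edgeR; the sign turned under 5 of 16 alternatives). It was higher at day 6 than at day 0, by 0.48 on the log2 scale in pre-treated cells (SE 0.06) and by 0.59 in untreated cells (SE 0.06).

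Faah, the amidase that cleaves anandamide, was at the limit of detection. Its counts were 1, 1, 4 and 1 in pre-treated libraries at day 0, 0, 4, 3 and 2 in untreated libraries at day 0, 10, 14, 5 and 8 in pre-treated libraries at day 6 and 7, 8, 5 and 11 in untreated libraries at day 6. It was under the expression filter in the fits reported here. The ratio of its summed counts per total count, day 6 over day 0, was 5.18 in pre-treated cells (exact 95% interval 2.28 to 13.8) and 3.56 in untreated cells (1.65 to 8.50). These intervals cover counting error only. No IL-13 difference was detectable at this depth: the ratio at day 0 was 0.782 with an interval of 0.248 to 2.36, and at day 6 it was 1.14 with an interval of 0.688 to 1.90.

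Cnr1, the receptor of both endocannabinoids, was nearly silent at day 0 and low at day 6. At day 0 it had 0, 0, 0 and 1 counts in pre-treated libraries and 2, 5, 3 and 6 counts in untreated libraries. All pre-treated libraries lay below all untreated ones. The ratio of summed counts per total count was 0.0629, with an exact 95% interval of 0.0015 to 0.405 for counting error only. Cnr1 was under the expression filter of the day 0 fit. Without a filter the day 0 adjusted p was 0.0076 by edgeR, and by DESeq2 it was 0.0227. At day 6 it had 13, 13, 11 and 14 counts in pre-treated libraries and 12, 31, 24 and 13 counts in untreated libraries. Those groups overlapped (log2 -0.63, SE 0.32, adjusted p 0.233 by edgeR), and the untreated libraries spread more than the pre-treated ones.

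Between the days Cnr1 was higher at day 6 in untreated cells, with 80 counts against 16 at day 0, a ratio of 5.16 (interval 2.99 to 9.47). It passed the filter of the fit over 16 libraries only through its day 6 counts, so no test is given for this difference. In pre-treated cells 51 counts at day 6 stood against 1 count at day 0, a ratio of 50.0 with an interval of 8.58 to 2014. In TPM Cnr1 stayed below the 6 genes other than Faah in every group. It averaged 0.359 TPM in pre-treated and 0.613 TPM in untreated cells at day 6, and 0.00827 TPM in pre-treated and 0.130 TPM in untreated cells at day 0.

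**Figure D3:**
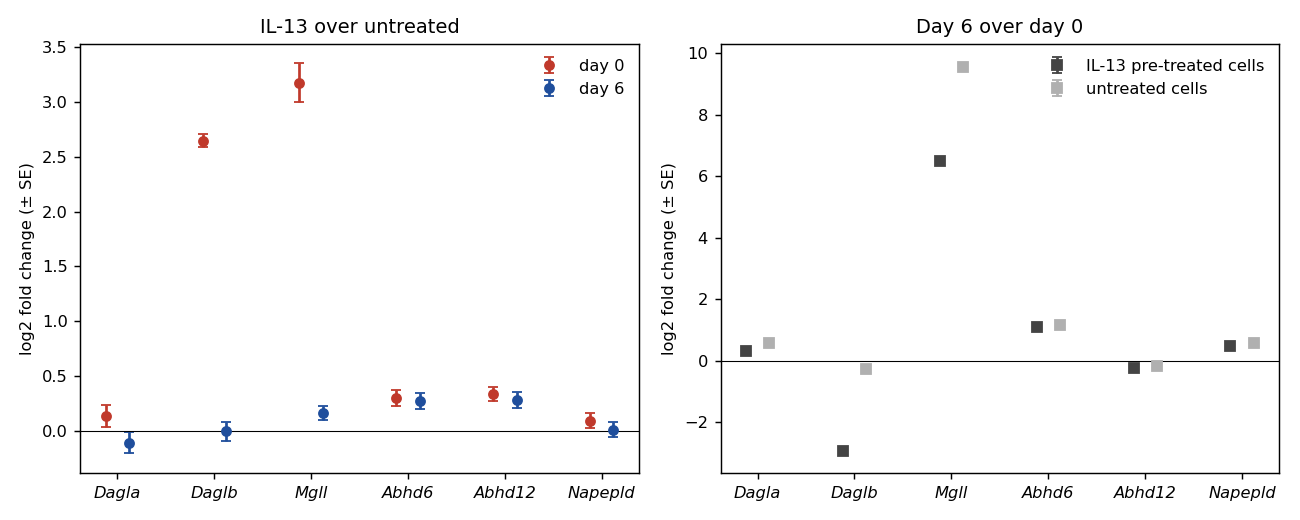
Log2 fold changes with SE from the edgeR fits for the 6 genes that passed the expression filter in all comparisons, IL-13 over untreated at each day (left) and day 6 over day 0 in each kind of cell (right). At day 0 Daglb and Mgll lie at 2.65 and 3.18, while at day 6 all 6 genes lie between -0.11 and 0.28.

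Counted together, 6 of the 8 genes passed the filter in the day 0 fit, and 4 were called higher and 0 lower with IL-13. Of all 12274 genes tested there, 23.7% were called higher and 24.2% lower. These were 2912 genes higher and 2969 lower. With scaling by total counts, which put the median of all genes at -0.13 on the log2 scale, they were 1682 higher and 4523 lower. At day 6, 7 genes passed and 2 were called higher and 0 lower, where 2.21% of all genes were called higher and 4.34% lower (273 and 536 genes, or 53 and 1032 with scaling by total counts). Between the days in pre-treated cells 5 of 7 were higher and 2 lower, against 40.6% and 40.3% of all genes. In untreated cells 5 of 7 were higher and 1 lower, against 41.5% and 39.0%. Cnr1, among those higher in both, passed only through day 6, and Mgll passed at day 0 only through its pre-treated libraries. The IL-13 difference itself was more positive at day 6 for 0 and more negative for 2 of the 7, Daglb and Mgll, against 3.12% and 4.95% of all genes. Nothing is read from these counts, because the genes were picked with these counts known.

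By TPM the order of the 8 genes differed between the groups. In pre-treated cells at day 0 it ran from Abhd12 (84.7 ± 3.46 TPM) over Daglb (51.2 ± 4.58), Abhd6 (31.4 ± 3.41), Napepld (19.3 ± 1.20), Dagla (8.45 ± 0.513) and Mgll to Faah and Cnr1, and only Faah and Cnr1 overlapped. In untreated cells at day 0 Abhd12 (77.04 ± 3.38 TPM) was followed by Abhd6 (29.2 ± 0.989), Napepld (20.7 ± 1.33) and then Daglb (9.35 ± 0.666) and Dagla (8.84 ± 1.61), which overlapped. Mgll led at day 6 in both kinds of cell. There Abhd12 (66.2 ± 2.35 TPM in pre-treated, 60.2 ± 3.24 in untreated cells) and Abhd6 overlapped in the next places, followed by Napepld (24.6 ± 2.31 and 26.96 ± 1.97), Dagla (9.64 ± 0.724 and 11.5 ± 0.974) and Daglb (6.11 ± 0.475 and 6.77 ± 0.660).

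The genes around this pathway were taken from 8 lists written with earlier results of these data known. Their counts stand against 23.7% of all genes called higher and 24.2% called lower at day 0, and 2.21% higher and 4.34% lower at day 6, and the split moved with the scaling as given above. Phospholipases C make the diacylglycerol that Dagla and Daglb use. Of 8 tested at day 0, 3 were higher and 2 lower with IL-13, with a median log2 difference of -0.01, the same as over all genes (-0.01). Plcb1 rose 4.95-fold (log2 2.31, SE 0.14) to 8.93 ± 0.867 CPM in pre-treated cells, against 1.77 ± 0.258 CPM in untreated cells (SD, n = 4 each). Plcb4, named after its values were seen, rose by 1.84 on the log2 scale (SE 0.09), and Plce1 fell by 0.92 (SE 0.13). At day 6, 0 of 8 were called by edgeR, 3 had an unadjusted p under 0.05 and DESeq2 called 1 (Plcb1 0.03, SE 0.10, and Plce1 -0.15, SE 0.10, by edgeR). The difference between the days was called for 4 of 9 phospholipases C, 1 more positive and 3 more negative at day 6, against 3.12% and 4.95% of all genes. Diacylglycerol kinases, which draw on the same diacylglycerol to make phosphatidic acid, counted 1 higher and 4 lower of 7 at day 0 (median -0.37). Dgkh fell by 0.74 (SE 0.08), Dgkq by 0.60 (SE 0.14) and Dgkd by 0.37 (SE 0.06), and Dgkz rose by 0.41 (SE 0.07). At day 6 Dgkq (log2 -0.56, SE 0.12) was the 1 called of 6.

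Among 11 other lipases and cofactors of neutral lipids, 7 were tested at day 0, of which 3 were higher and 3 lower with IL-13. Pnpla2, the adipose triglyceride lipase, rose 1.95-fold (log2 0.96, SE 0.10), to 38.6 ± 4.30 CPM in pre-treated cells, against 19.7 ± 2.85 CPM in untreated cells. Ddhd2, a triglyceride lipase known from neurons, fell by 0.41 (SE 0.10). At day 6, 2 of 9 were lower and 0 higher (Pnpla3 log2 -0.40, SE 0.11; Ddhd2 log2 -0.37, SE 0.08), and Pnpla2 had a log2 difference of 0.14 (SE 0.09, adjusted p 0.328 by edgeR). The 7 that passed the filter at day 0 were all higher at day 6 than at day 0 in both kinds of cell, against 40.6% of all genes in pre-treated and 41.5% in untreated cells. In untreated cells Pnpla2 rose by 5.61 (SE 0.12). Pnpla3 and Ces1d passed the filter only through day 6. Pnpla3 had 750 counts in pre-treated and 1006 in untreated cells at day 6, against 4 in pre-treated and 1 in untreated cells at day 0, and Ces1d had none at day 0. In TPM at day 6, Pnpla2 stood at 1011 ± 71.2 in pre-treated and 1014 ± 76.7 in untreated cells. Lipe, the hormone-sensitive lipase, named for its role outside the rule, stood at 636 ± 54.5 TPM in pre-treated and 625 ± 29.9 TPM in untreated cells, so that at day 6 the order of the lipolysis genes was Pnpla2, Lipe and Mgll.

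**Figure D4:**
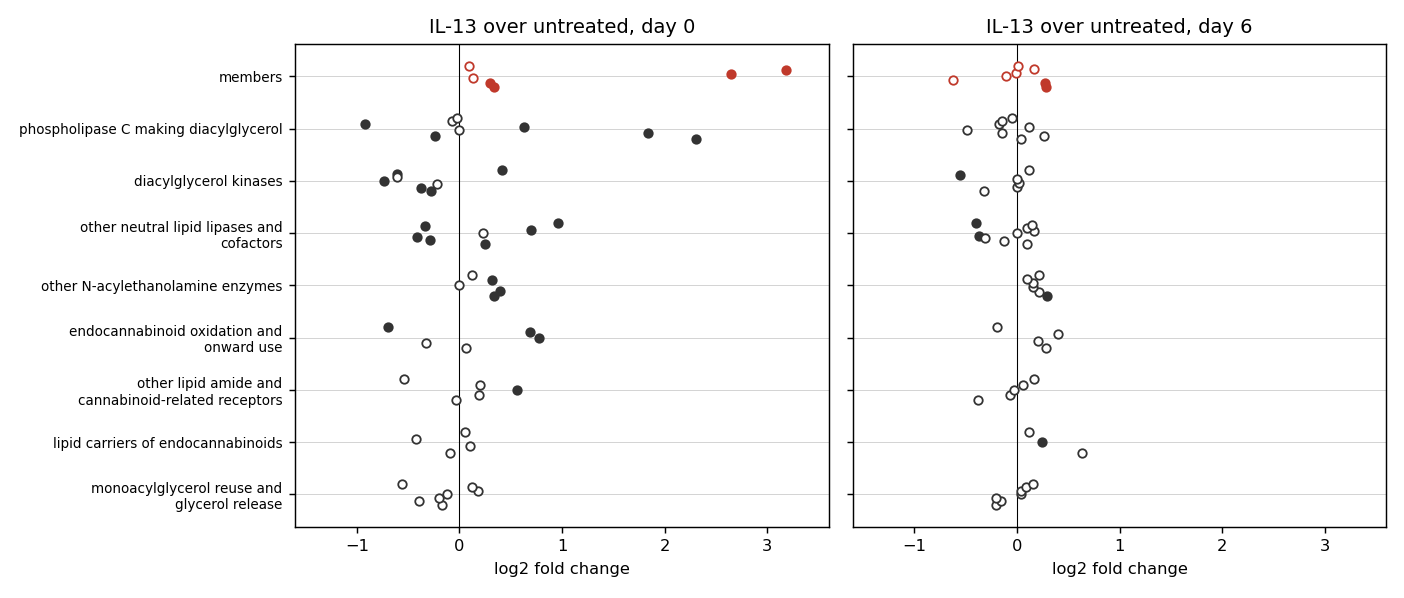
Log2 fold change, IL-13 over untreated, of each tested gene of the 8 pathway lists and of the 8 endocannabinoid genes (top row, members) at day 0 (left) and day 6 (right). Filled points have an adjusted p under 0.05 over all genes, and open points do not. Points beyond 1.5 at day 0 are Daglb, Mgll, Plcb1 and Plcb4, and no point passes 1 at day 6.

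Other enzymes of N-acylethanolamines counted 3 higher and 0 lower of 5 tested at day 0, against 23.7% and 24.2% of all genes, with a median log2 difference of 0.32. Gde1 and Abhd4, which serve routes to anandamide that bypass Napepld, rose by 0.39 (SE 0.08) and 0.34 (SE 0.07). At day 6 edgeR called 1 of 6, Abhd4 (log2 0.29, SE 0.06), where 3 had an unadjusted p under 0.05 and DESeq2 called 3. Of the enzymes that oxidise arachidonic acid and endocannabinoids or use the products onward, 2 were higher and 1 lower of 5 at day 0. Ptgs1, the cyclooxygenase COX-1, rose by 0.69 (SE 0.06) and Ptges, a prostaglandin E synthase, by 0.78 (SE 0.08), while Ptgs2, the inducible COX-2, fell by 0.70 (SE 0.14). At day 6, edgeR called 0 of 4, although 3 had an unadjusted p under 0.05, and DESeq2 called 1. In untreated cells Ptgs1 (log2 -3.25, SE 0.11) and Ptgs2 (log2 -2.77, SE 0.18) were lower at day 6 than at day 0, and Ptges was higher by 3.65 (SE 0.07).

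Of 5 tested genes of related receptors and the CB1-binding protein Cnrip1, Pparg, the master regulator of adipogenesis, was the 1 called at day 0 by edgeR and by DESeq2. It rose by 0.56 (SE 0.05) to 93.6 ± 6.18 CPM in pre-treated cells, against 62.8 ± 1.81 CPM in untreated cells. At day 6 edgeR and DESeq2 called 0, and 0 of 5 had an unadjusted p under 0.05 by edgeR (Pparg log2 0.06, SE 0.06). Pparg is also an adipocyte marker, and the other markers tested at day 0 did not rise with it. Of 4 tested, edgeR called 1 higher and 2 lower, against 23.7% and 24.2% of all genes. Those lower were Cebpa (log2 -0.50, SE 0.07) and Lpl (log2 -0.33, SE 0.05), and Fabp4 was not called (log2 -0.10, SE 0.06). Ppara and Trpv4 each passed the filter on 1 of the days only. In untreated cells Ppara had 4524 counts at day 6 and 51 at day 0, and Trpv4 had 15 counts at day 6 and 56 at day 0. Of the lipid carriers edgeR and DESeq2 called 0 of 4 at day 0, where 0 had an unadjusted p under 0.05, and edgeR called 1 of 3 at day 6, Fabp5 (log2 0.24, SE 0.06). Fabp5 was also higher at day 6 than at day 0 (log2 4.28, SE 0.08) and Fabp3 lower (log2 -3.04, SE 0.19) in untreated cells. The list for monoacylglycerol reuse and glycerol release held Mogat1, Mogat2, Agk, Gk, Aqp7, Lpcat1, Mboat1 and Mboat7. It was broader than its name, since Lpcat1, Mboat1 and Mboat7 act on other lipids. Of this list edgeR called 0 of 7 tested genes on either day. At day 0, 1 had an unadjusted p under 0.05 and DESeq2 called 0, and at day 6 these numbers were 3 and 1. Mogat1 and Mogat2, which make diacylglycerol from monoacylglycerol, each passed the filter on 1 of the days only. In untreated cells Mogat1 had 340 counts at day 6 and 0 at day 0, and Mogat2 had 7 counts at day 6 and 81 at day 0.

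For the 7 genes other than Faah, which was under the filter, the annotated genes with the most similar pattern were ranked by Pearson's r of log2 CPM over the 16 libraries among 12123 genes, as a description only, since libraries share group and depth. For Daglb these were Col6a5 (r = 0.994), Xdh (0.993) and Rnf19b (0.993). Xdh, the xanthine dehydrogenase, averaged 389 CPM in pre-treated and 106 CPM in untreated cells at day 0, and at day 6 it averaged 104 CPM in pre-treated and 97.9 CPM in untreated cells. For Mgll they were C3 (0.998), Chrdl1 (0.997) and Odf3l1 (0.997). C3, complement component 3, averaged 8.93 CPM in pre-treated and 0.993 CPM in untreated cells at day 0, and at day 6 it averaged 1906 CPM in pre-treated and 1704 CPM in untreated cells. The nearest were Trp53inp2 (0.992), Ankrd40 (0.992) and Coa3 (0.991) for Abhd6, and Psmb1 (0.971), Eif3l (0.965) and Zcchc17 (0.964) for Abhd12. They were Man2c1 (0.960), Sars2 (0.952) and Pdxk (0.952) for Dagla, and Slc7a11, Slc16a10 and Rps6ka3 (0.983 each) for Napepld. For Cnr1, which rests on few counts, they were Zbtb46 (0.966), Abca1 (0.964) and Pi15 (0.962). Among the 8 genes themselves, Mgll, Abhd6 and Napepld were alike (r of 0.977 for Mgll with Abhd6 and 0.963 for Mgll with Napepld), and Daglb and Mgll were not (r = -0.42).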

How the data were processed

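Polyadenylated RNA was sequenced from 16 libraries, each made from 2 ug of total RNA with a stranded kit, per the labels' protocols. The authors deposited whole read counts per gene with no normalization, per the file headers, and TPM, which scales counts to transcript length and library size. The build was mm10 per the submitters' processing notes. For the aligner, the counter, the annotation and the strand setting, nothing is given in the sources used here. The RPKM and CPM columns, 32 in all, and the authors' comparisons were not used.

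Counts were tested with edgeR 4.0.16 in R 4.3.3 (quasi-likelihood, robust, trimmed-mean scaling, expression filter at a count of 10 and a total of 15). IL-13 comparisons used the 8 libraries of a day, and the day comparisons and the difference between days used all 16. The adjusted p-values are Benjamini-Hochberg over all genes tested in a comparison, and a gene was called under 0.05. Fold changes set pre-treated over untreated, or the later day over the earlier one, and SE is the log2 fold change divided by the root of F. CPM came from scaled sizes of all 16 libraries. For Cnr1 and Faah, ratios of summed counts per total count have exact binomial 95% intervals, which cover counting error only. Alternatives were total-count and size-factor scaling, DESeq2 1.42.0, no filter, a replicate block, 1 fit over all 16 libraries, the nuclear RNA index as covariate, leaving out the untreated libraries richest in it, and leaving out each library. The scripts were tested on simulated data.

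The 8 genes, the pathway, marker and nuclear RNA lists and the naming rule were chosen with earlier results of these data known. All 8 genes were named. From each pathway list, the called gene with the largest change in each direction of each comparison was picked, up to 4 genes a list, and for each of the 7 past the filter the 3 genes most alike. Plcb2, Plcg2, Hrasls5 and Gdpd1 were picked through the day comparisons, and their values are not given. Plcb4, Lipe, Rac1 and Gm26588 were added after values were seen. Marker lists covered preadipocytes, adipocytes, macrophages, endothelial cells, neurons and glia.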

Additional observations from a re-analysis of the deposited data

Results flagged for a closer look

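The IL-13 difference of Daglb and of Mgll differed between the days by the interaction test of edgeR. The difference at day 6 minus that at day 0 was -2.682 on the log2 scale for Daglb and -3.044 for Mgll, and both kept that call under all 23 alternatives. Both genes were picked with their counts known, so these calls are descriptive. The untreated day 0 libraries of Mgll would not have passed the expression filter by themselves. The day is also the deposited table, so day and table cannot be told apart.

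In 4 of the 32 sets of 4 libraries tested, 1 library lay apart from the other 3 by Dixon's test, which chance does in about 1 set in 20. Faah in pre-treated cells at day 0 had a gap of 0.9775 of the range, from 4 counts in replicate 3 against 1 in each of the other libraries. Cnr1 in pre-treated cells at day 0 had a gap of 1.0, from a single count. Cnr1 in pre-treated cells at day 6 had its lowest library apart by 0.8485 of the range, with 11 counts. Abhd6 in untreated cells at day 6 had its highest library, replicate 3, apart by 0.9066 of the range, at 45.2 CPM. Without that library the Abhd6 call at day 6 was kept.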

How the results depend on the processing

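Daglb and Mgll kept their IL-13 calls at day 0 and their calls for the difference between the days under every alternative run. The other IL-13 calls depended on the processing. The nuclear RNA index did not overlap between the groups of a day, so with it as covariate the index and IL-13 can hardly be told apart. At day 0, this covariate left 2 of the 8 genes called, against 4 in the fit reported. At day 6, against 2, the number was 0 with scaling by total counts, 1 with size factors, 0 with the nuclear RNA index as covariate and 0 without the untreated libraries richest in nuclear RNA, and it lay between 0 and 2 when 1 library was left out. The calls over all genes at day 6, 809 in the fit reported, were 62 without pre-treated replicate 2, 205 without replicate 3, 320 without replicate 4, 2328 without replicate 1, 102, 60 and 523 without untreated replicates 1, 2 and 3, and 1 with the nuclear RNA index; DESeq2 gave 1470. At day 0 the index left 828 of 5881 calls and leaving out the untreated libraries richest in nuclear RNA left 3485.

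The nuclear RNA difference at day 0 lay between -1.02 and -0.724 when 1 library was left out, with an exact p of 0.0571 without any 1 pre-treated library and of 0.0286 without any 1 untreated library. The list was written with this difference known, so these p-values only describe it. Signs turned only for differences past no threshold. These were Napepld with scaling by total counts (-0.0271 at day 0, -0.0790 at day 6) and in 1 fit over 16 libraries (-0.00352 at day 6), Daglb at day 6 without a filter (0.00162) or with the index (0.104), Mgll at day 6 with the index (-0.0103), and the between-day difference of Abhd6 with scaling by total counts (0.0023) or without a filter (0.00102). With 1 library left out they turned for Daglb at day 6 (between -0.0628 and 0.0408), Napepld at day 6 (between -0.0494 and 0.0321), and the between-day differences of Abhd6 (between -0.0889 and 0.0365) and Abhd12 (between -0.146 and 0.0236). Over single-gene results, 628 kept direction and call, 25 lost the call, 15 gained it and 23 turned sign.

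The labels do not say what same-numbered libraries share, so the numbers were not taken as pairs. Same-numbered libraries of pre-treated and untreated cells had deviations correlated by 0.236, -0.10, 0.252 and 0.0904 at day 0 and 0.274, 0.0239, 0.249 and 0.277 at day 6. Different-numbered ones had correlations from -0.239 to 0.156 at day 0 and from -0.311 to 0.328 at day 6, more of them below 0 than above. Deviations were taken from each group's mean, which pulls different-numbered correlations below 0 where same-numbered ones lie above 0. That excess is therefore not a separate observation. Whether same-numbered libraries share an origin was not tested. With a replicate block 6518 genes were called at day 0 and 2812 at day 6. Of the 8 genes 4 and 3 were called, the third at day 6 being Mgll (adjusted p 0.0393 by edgeR). Depth limits Cnr1 and Faah.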
